A study of Mus musculus with 3 samples.

Results

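Dppa2, Dppa3, Dppa4, Dppa5a, Utf1, L1td1 and Fbxo15 are genes known for activity in embryonic stem (ES) cells, early embryos and germ cells and for silence in most adult tissues. They were taken by symbol, from probe sets annotated with a single gene, and make up 7 genes read by 9 probe sets among 19057 genes read by 20764 probe sets. The samples were 3 biological repeats of R1, a mouse ES cell line of strain 129, hybridised as total RNA to the Affymetrix Mouse Gene 1.0 ST array. The labels give no treatment, genotype or passage and do not say whether the cells were grown on feeder cells. All 3 arrays belong to 1 group, so the values show whether each gene gave signal and how far the repeats differed, and restriction to ES cells could not be checked against another tissue. Spread between these repeats includes technical spread, and having 3 arrays limits precision throughout.

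Several of these genes entered the field together as transcripts found in ES cells and lost on differentiation. Dppa2 and Dppa4 are DNA-binding proteins with a SAP domain that act together on chromatin, and in mouse ES cells they are needed for activation of genes of the 2-cell embryo. Dppa3, also called Stella or PGC7, is a maternal and germ cell protein that restrains the DNA methylation machinery. Dppa5a, also called Esg1, is an RNA-binding protein with a KH domain, Utf1 is a chromatin-associated regulator of transcription, L1td1 is an RNA-binding protein derived from a LINE-1 transposon, and Fbxo15 is an F-box protein, the substrate-binding part of a ubiquitin ligase. Utf1 and Fbxo15 are direct targets of the factors Oct4 (Pou5f1) and Sox2, and the Fbxo15 locus carried the reporter in early reprogramming of fibroblasts.

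All 7 genes gave signal in all 3 repeats. Background was set by 1182 receptor genes of the olfactory and vomeronasal families, and a gene passed on an array above their 95th percentile, a log2 intensity of 4.72, 4.60 and 4.60 in repeats 1, 2 and 3. Of all genes, 67.4% passed on all 3 arrays, so detection at this cutoff is common and 7 of 7 is read against that share. A stricter cutoff was the 95th percentile of 120 keratin-associated, defensin and bitter taste receptor genes, at 6.19, 6.31 and 6.19. All 7 genes also passed the 99th percentile of the receptor genes on all 3 arrays, as 51.7% of all genes did. The stricter cutoff from the other families was passed on all 3 arrays by 6 of the 7 genes, all but Dppa3, and by 39.5% of all genes. The median of the 7 mean levels was 9.80, beside 5.69 for all genes. Probe sets of different genes bind with different strength, so no order of levels is drawn between genes.

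**Figure D1:**
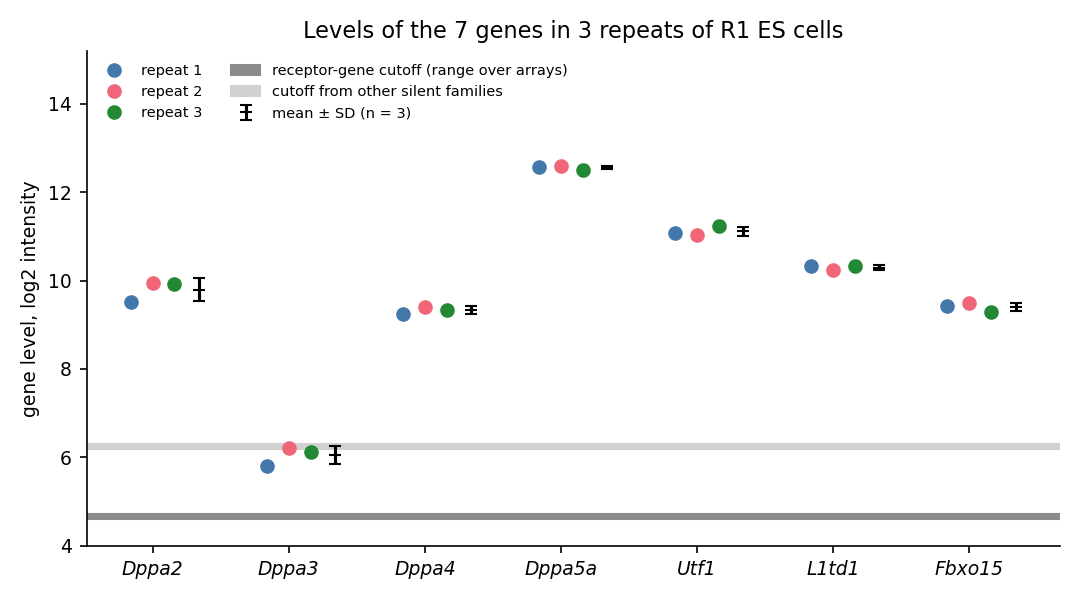
Each gene's log2 intensity in repeats 1, 2 and 3 (coloured points, probe sets of a gene averaged) with the mean ± SD over the 3 repeats (black), above 2 background cutoffs drawn as bands over their range on the 3 arrays. Dppa3, from 5.81 to 6.21, lies above the lower band. Its repeats 1 and 3 lie below the upper band, and its repeat 2 lies within that band but below the cutoff of its own array. The other 6 genes lie above both bands in every repeat.

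The paired factors Dppa2 and Dppa4 were each read by 2 probe sets, whose annotation lists the same RefSeq transcripts of the gene. The first Dppa2 probe set had intensities of 418, 649 and 619 in repeats 1, 2 and 3, and the second had 1266, 1507 and 1541. Repeat 1 was the lowest for both, and repeats 2 and 3 lay close together. As a gene, Dppa2 read 9.51, 9.95 and 9.93 on the log2 scale, with a mean of 9.80 ± 0.25 (SD, n = 3). Repeat 1 lay below the mean of the other repeats by a log2 difference of -0.43 for the gene, -0.60 for the first probe set and -0.27 for the second. The first probe set thus gave the wider gap.

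The first Dppa4 probe set had intensities of 491, 627 and 564 in repeats 1, 2 and 3, with repeat 1 again the lowest and repeat 2 the highest. The second read 747, 741 and 745, an SD of 0.0060 log2 units, and showed no such order. Of genes above background on all 3 arrays, 0.257% had a smaller SD than this probe set. The gene mean was 9.33 ± 0.086 (SD, n = 3), from 9.24, 9.41 and 9.34 in repeats 1, 2 and 3. The 2 probe sets therefore describe Dppa4 differently, 1 with a 1.28-fold gap between the highest and lowest repeat and 1 with a 1.01-fold gap.

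Disagreement of this size was not rare on the array. Among 496 genes with 2 probe sets that both lay above background, the median absolute difference in mean level was 0.47 log2 units, and the median range of the difference over repeats was 0.18. The second Dppa2 probe set exceeded the first by 1.60, 1.21 and 1.32 in repeats 1, 2 and 3, a mean difference larger than in 78.6% of these genes. For Dppa4 the difference was 0.60, 0.24 and 0.40, with a mean larger than in 46.0% of them. The range of the difference over repeats was 0.38 for Dppa2 and 0.36 for Dppa4, wider than in 86.1% and 83.3% of the genes. Which transcripts or copies each probe set reads was not tested.

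**Figure D2:**
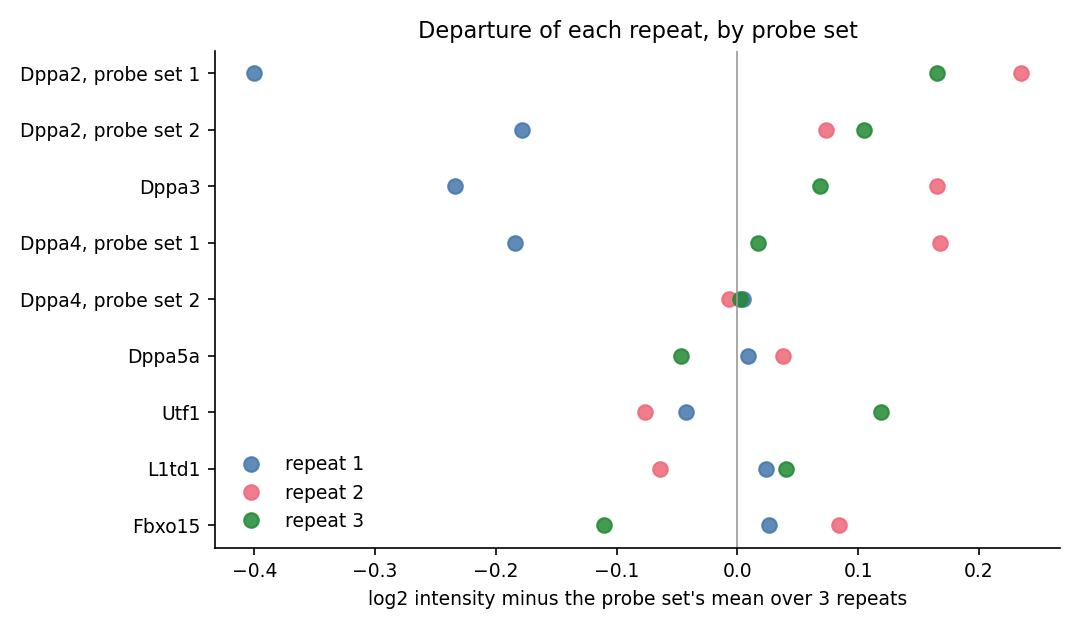
Log2 intensity of each repeat minus the mean over 3 repeats of the same probe set (horizontal axis), for the 9 probe sets (rows). Repeat 1 is the lowest for both Dppa2 probe sets, for Dppa3 and for the first Dppa4 probe set, while the 3 points of the second Dppa4 probe set nearly coincide.

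Dppa3 lay near background. Its intensities were 56.3, 74.2 and 69.4 in repeats 1, 2 and 3, or 5.81, 6.21 and 6.12 on the log2 scale (mean 6.05 ± 0.21, SD, n = 3). It exceeded the receptor cutoff by 1.10, 1.62 and 1.51 and differed from the stricter cutoff by -0.38, -0.093 and -0.073. Signal of this size was not shown to be expression, and a processed copy, Dppa3-ps, is listed in RefSeq, so its source is uncertain. Repeat 1 was the lowest of the 3, as for Dppa2, and the highest repeat exceeded the lowest 1.32-fold. Dppa3 is known to be made by a fraction of mouse ES cells in culture. In bulk RNA, fewer cells making a transcript and less of it in each cell cannot be told apart.

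Dppa5a was read at intensities of 6061, 6184 and 5831 in repeats 1, 2 and 3. On the log2 scale these were 12.57, 12.59 and 12.51, with a mean of 12.56 ± 0.043 (SD, n = 3) and a gap of 1.06-fold between the highest and lowest repeat. No other gene of the 7 had a smaller SD. RefSeq lists pseudogenes named Dppa5b and Dppa5c, so reads of near-identical copies may add to the value, which was not tested. Dppa1, a gene with the same name stem that lies outside the 7, read intensities of 6.82, 6.99 and 6.90 and was below the receptor cutoff on all 3 arrays. Of the 5 genes measured under the Dppa name, it was the 1 below that cutoff, and Dppa3 passed that cutoff but not the stricter one.

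Utf1, the chromatin regulator, had intensities of 2152, 2101 and 2406 in repeats 1, 2 and 3. Its mean was 11.11 ± 0.10 (SD, n = 3), and repeat 3 was the highest, by 0.18 log2 units over the mean of the others. L1td1, the RNA-binding protein, read 1276, 1201 and 1291, with a mean of 10.29 ± 0.056 and repeat 2 the lowest by a log2 difference of -0.097. Fbxo15, the F-box protein, read 688, 717 and 626, with a mean of 9.40 ± 0.10 and repeat 3 the lowest by -0.17. Repeat 3 was thus the farthest from the others for Utf1 and Fbxo15, in opposite directions, and repeat 2 for L1td1. The gap between highest and lowest repeat was 1.15-fold for Utf1, 1.08-fold for L1td1 and 1.14-fold for Fbxo15.

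Promoter sequence was matched for 2 of the 7 genes, Utf1 and L1td1, in RefSeq's GRCm38.p6 table. Each is shown as the 250 bases before the annotated start, 5′ to 3′ on the plus strand, because both genes gave strong signal here and CpG-bearing promoters of this kind are where DNA methylation can act. Capitals mark CpG dinucleotides.
Utf1, chr7:139943606-139943855: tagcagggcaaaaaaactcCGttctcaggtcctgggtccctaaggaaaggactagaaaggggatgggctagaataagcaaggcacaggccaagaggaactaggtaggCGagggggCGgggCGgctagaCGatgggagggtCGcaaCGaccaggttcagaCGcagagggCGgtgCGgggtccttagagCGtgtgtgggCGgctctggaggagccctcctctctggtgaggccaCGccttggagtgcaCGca
L1td1, chr4:98726504-98726753: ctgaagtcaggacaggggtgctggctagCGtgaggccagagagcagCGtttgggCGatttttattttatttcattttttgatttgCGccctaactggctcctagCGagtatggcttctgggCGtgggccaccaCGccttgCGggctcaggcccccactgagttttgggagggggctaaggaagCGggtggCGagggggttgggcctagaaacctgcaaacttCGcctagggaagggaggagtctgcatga
The Utf1 window held 14 CpGs at 61.6% GC, and the L1td1 window held 11 at 57.6% GC, beside a median of 6 CpGs and 52.4% GC over 32851 promoter windows of the same length. Their CpG counts exceeded those of 70.6% and 64.4% of windows. Neither window held any of 5 motifs searched on both strands, namely the octamer ATGCAAAT, the Sox core ATTGTT, the E-box CACGTG, the E2F-type TTCCCGC and the TATA-type TATAAA. These occurred in 1.60%, 9.42%, 6.02%, 3.82% and 12.4% of all windows, in that order, so their absence is the common case. Sites outside these 250 bases, or with a sequence differing from these motifs, were not searched.

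The second question was whether any of the 7 genes varied between repeats beyond genes of like level. Each gene's variance over the 3 repeats was set against the trend of limma's fit on 13610 genes above background on at least 1 array. This test called 22 of them, 0.162%, after Benjamini-Hochberg adjustment, and 0 of the 7 members. Of the 7, Dppa2 alone had an unadjusted p under 0.05 in the limma fit, as 782 of the 13610 genes did. Its p was 0.00861 (limma, adjusted p = 0.505), with an SD of 0.25 where the trend gave 0.089. Its SD was larger than in 97.6% of the 500 genes nearest in level. The other adjusted p-values ran from 0.977 for Dppa3 to 0.997.

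The Dppa2 gap rested on repeat 1. Without it the remaining pair gave an adjusted p of 0.999 in the limma variance test. Without repeat 2 the adjusted p was 0.149, and without repeat 3 it was 0.651 (limma). The trend's degrees of freedom were 6.21, infinite and 8.79 without repeats 1, 2 and 3, so these p-values are not directly comparable. With each probe set tested by itself, an alternative chosen after seeing the data, the first Dppa2 probe set had an adjusted p of 0.277 (limma) and the second 0.943. Over the 7 genes the median SD was 0.10, close to the 0.10 of all genes above background on all 3 arrays, and 3 of the 7 lay above the latter.

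**Figure D3:**
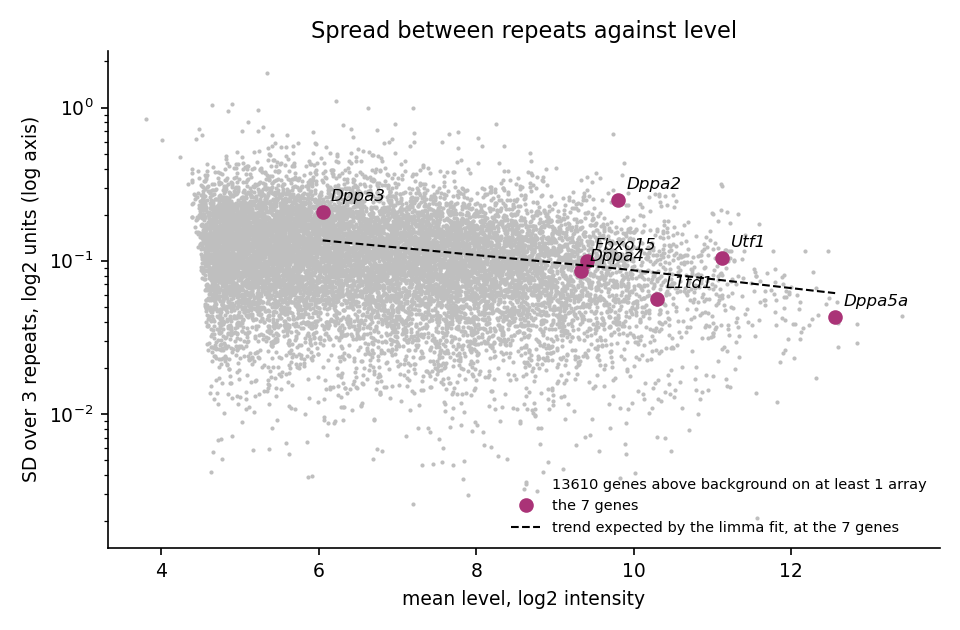
SD over 3 repeats in log2 units (vertical log axis) against mean log2 intensity, for 13610 genes above background on at least 1 array (grey) and the 7 genes (purple), with the SD that the limma trend gives at their levels (dashed). Dppa2 stands highest above the trend at an SD of 0.25, and Dppa4, Dppa5a and L1td1 lie below it.

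The repeats did not move the 7 genes as one. Repeat 2 held the highest value for 5 of 7 genes, beside 36.9% of all genes above background, and its median departure from the mean of the other repeats was 0.12 log2 units. Repeat 1 held the lowest value for Dppa2, Dppa3 and Dppa4, 3 of 7 beside 33.3% of all genes, and the highest for 0 of the 7 beside 30.01%, with a median departure of -0.063. Repeat 3 held the highest value for Utf1 and L1td1 and the lowest for Dppa5a and Fbxo15, beside 33.1% and 31.9% of all genes, with a median departure of 0.061. With 7 genes these counts were not tested against the shares of all genes. The corresponding medians over all 12841 genes above background on all 3 arrays were 0.0063 for repeat 2, -0.011 for repeat 1 and 0.0019 for repeat 3. The departure of repeat 1 changed sign to 0.014 after quantile normalization and to 0.0072 with the highest probe set of a gene, and that of repeat 2 became 0.066 and 0.057 under the same alternatives. The counts of highest and lowest repeats did not hold under them either. After quantile normalization L1td1 and Fbxo15 were highest in repeat 1, by 0.089 and 0.094 over the mean of the others. With the highest probe set, Dppa2 was highest in repeat 3, by 0.16, and Dppa4 in repeat 1, by 0.0072.

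The fibroblast markers had a median departure of 0.35 log2 units in repeat 2 from the mean of the other repeats. Acta2 departed most, by 1.29, while Lum and S100a4 were lower in repeat 2, by -0.23 and -0.44. Of 13 written, 10 were above background on all 3 arrays, Acta2 was the 1 called by the variance test (limma, adjusted p = 0.00807), and Lum, Fap and S100a4 were not above background on all arrays. The summed intensity of the 13 was 1715, 2539 and 1741 in repeats 1, 2 and 3. Their part in the values of the 7 genes was not tested. Of other lineages, 4 of 8 primitive endoderm and 3 of 6 trophoblast markers exceeded the receptor cutoff on all 3 arrays, but 0 and 1 exceeded the stricter one, with Gata6 at 5.93 ± 0.17, Sox17 at 4.60 ± 0.076, Cdx2 at 5.57 ± 0.16 and Elf5 at 4.31 ± 0.10 (SD, n = 3). Of 7 germ cell and oocyte markers 6 exceeded the receptor cutoff and 2, Ddx4 and Dazl, the stricter one. Beside these counts of markers, 67.4% of all genes passed the receptor cutoff on all 3 arrays and 39.5% the stricter one.

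By the pattern over 3 arrays, the genes most like Dppa2 were Tor1aip1, Lce1h and Slc27a3. Their distance from Dppa2, as the root of summed squared differences between values centred on each gene's mean, was 0.0084, 0.0096 and 0.019 log2 units. Slc27a3, for example, read 5.96, 6.38 and 6.39 in repeats 1, 2 and 3. With 76 genes within 0.1 of Dppa2, likeness over 3 arrays is weak. Dppa3 was among these 76 genes but not among the nearest 3, and Dppa4 was not among the 76.

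Genes beside the 7 on the chromosome, a set added after the data were seen, were taken as the 2 protein-coding genes on each side in RefSeq order. Dppa2 and Dppa4 lie next to each other on chromosome 16, and Morc1, a germ cell gene next to Dppa2, read 8.09, 8.19 and 8.05 in repeats 1, 2 and 3, above both cutoffs. Trat1, the next gene, was below background at 2.51 ± 0.016 (SD, n = 3). Unlike Dppa2, Morc1 was not lowest in repeat 1. On the other side of Dppa4, the adhesion gene Nectin3 read 7.81, 7.52 and 7.55 and was highest in repeat 1.

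Dppa3 sits on chromosome 6 between Gdf3, a TGF-beta family ligand, and Nanog, followed by the glucose transporter Slc2a3. Gdf3 read 9.71, 9.57 and 9.74, Nanog 10.89, 11.24 and 10.88, and Slc2a3 12.21, 12.27 and 12.05 in repeats 1, 2 and 3. All 3 neighbours passed both cutoffs on every array, whereas Dppa3 passed the receptor cutoff only. Nanog shared its high repeat 2 with Dppa3, while Gdf3 was lowest there. Apobec1, on the far side of Gdf3, read 5.96 ± 0.23 (SD, n = 3) and, like Dppa3, passed the receptor cutoff only.

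Dppa5a lies on chromosome 9 beside Ooep, which encodes a related KH-domain protein of the oocyte, and Ddx43, a germ cell RNA helicase. Ooep read 8.57, 8.75 and 8.50 in repeats 1, 2 and 3 and Ddx43 6.61, 6.96 and 6.88, both above both cutoffs. On the other side, Omt2b was below background at 2.95 ± 0.28 (SD, n = 3). Utf1, on chromosome 7, differed: none of its measured neighbours Kndc1, Adgra1, Spef1l and Adam8 passed the stricter cutoff on all 3 arrays, with means from 4.32 for Spef1l to 5.75 for Adgra1. The nearest neighbours of L1td1 on chromosome 4, Patj at 5.60 ± 0.20 and Kank4 at 5.46 ± 0.18 (SD, n = 3), passed the receptor cutoff only. The next genes out, Tm2d1 at 7.76 ± 0.16 and Usp1 at 9.43 ± 0.14 (SD, n = 3), passed both. The nearest neighbours of Fbxo15 on chromosome 18, Cyb5a at 8.80 ± 0.15 and Timm21 at 7.02 ± 0.14 (SD, n = 3), passed both. Neto1, beyond Timm21, was below background at 3.53 ± 0.16 (SD, n = 3). Altogether 17 of 21 measured neighbours passed the receptor cutoff and 11 the stricter one, beside 67.4% and 39.5% of all genes.

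**Figure D4:**
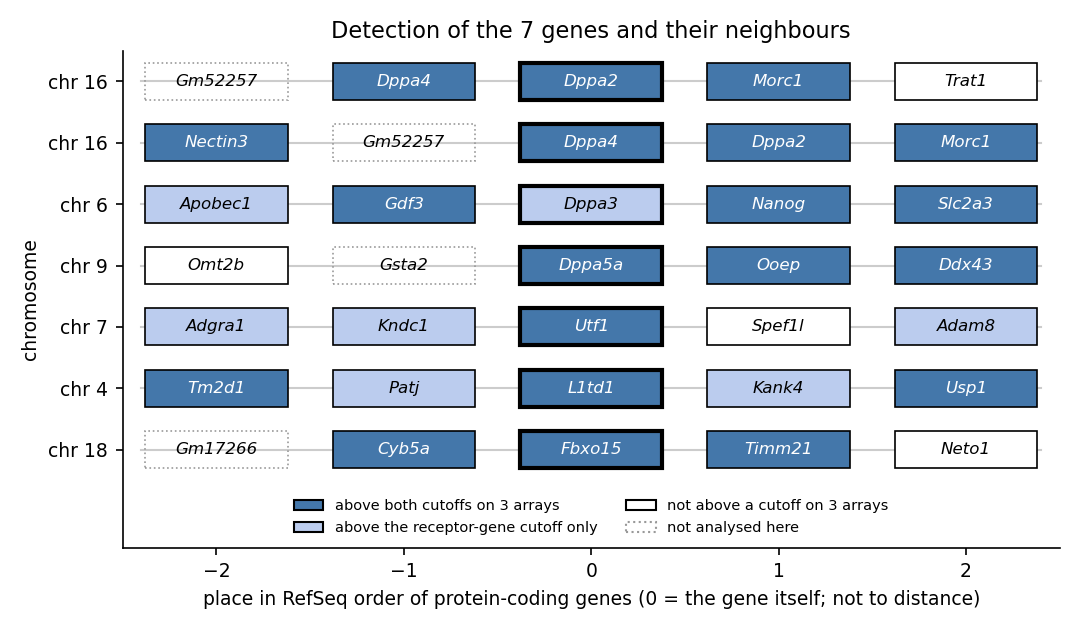
Each of the 7 genes (thick box, place 0) with the 2 protein-coding genes before and after it in RefSeq order on its chromosome (rows; boxes are not spaced by distance), coloured by the cutoffs passed on all 3 arrays. Dppa3 passes the receptor cutoff only, between Gdf3 and Nanog, which pass both, and Utf1 passes both among neighbours that do not.

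Of 14 genes listed as Dppa2 and Dppa4 targets or as 2-cell-like, 8 were measured. Of these, 4 passed the receptor cutoff on all 3 arrays, beside 67.4% of all genes, and 3 the stricter one, beside 39.5%. The 3 were Nkx2-5 at 6.66 ± 0.14, Syce1 at 6.82 ± 0.17 and Mael at 7.07 ± 0.076 (SD, n = 3), named after their values were seen. Nkx2-5 is a heart factor, Syce1 a part of the meiotic synaptonemal complex and Mael a germ cell protein that guards against transposons. Of the genes of the 2-cell-like state, Zfp352 read 4.56 ± 0.24, Tdpoz1 3.96 ± 0.27, Usp17la 3.18 ± 0.16 and Usp17lc 4.31 ± 0.21, and none of these 4 passed the receptor cutoff on all 3 arrays. Usp17ld read 5.49, 6.47 and 5.83 in repeats 1, 2 and 3 and was the least even of them (limma, adjusted p = 0.236). These families hold near-identical copies, so single members are uncertain, and Zscan4 genes and Dux are not analysed here.

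Of 6 measured oocyte genes related to Dppa5a or of a maternal complex, Ooep, Khdc3 and Tle6 passed the receptor cutoff on all 3 arrays. Ooep alone passed the stricter one on all 3 arrays. The counts were 3 of 6 and 1 of 6, beside 67.4% and 39.5% of all genes. Khdc3, another KH-domain gene, read 6.26, 5.91 and 6.25 in repeats 1, 2 and 3, near the stricter cutoff. Khdc1a at 2.49 ± 0.082, the maternal complex gene Nlrp5 at 3.80 ± 0.12 and the deiminase gene Padi6 at 4.04 ± 0.025 (SD, n = 3) were below background. Tle6, a gene of the maternal complex named after its values were seen, read 5.63 ± 0.082.

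Of 17 genes written as a list of other ES-restricted genes, 11 were measured. All 11 passed the receptor cutoff, beside 67.4% of all genes, and 10 the stricter one, beside 39.5%, with Khdc3 the exception. The variance test called 0 of them. The list includes Trim28 and Mybl2, and restriction to ES cells was not tested for any member. Zfp42 (Rex1), a zinc finger factor of naive ES cells, read 11.24, 11.34 and 10.75 in repeats 1, 2 and 3, lowest in repeat 3 (limma, adjusted p = 0.153). Gdf3 read 9.67 ± 0.090 and Tcl1, a coactivator of the kinase Akt, 8.09 ± 0.14 (SD, n = 3). The list's median level was 8.84 and its median SD 0.12, beside 0.10 for all genes above background. All 12 core network factors passed both cutoffs, among them Pou5f1 at 11.63, 11.84 and 11.83 in repeats 1, 2 and 3. Pou5f1 was lowest in repeat 1, as Dppa2 was, with a gap between highest and lowest repeat of 1.36-fold for Dppa2 and 1.15-fold for Pou5f1. Sox2, its partner, read 10.78, 10.76 and 10.79 and did not share that order. Sall4 (9.91 ± 0.12) and Tfcp2l1 (9.23 ± 0.28, SD, n = 3) belong to the same network.

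**Figure D5:**
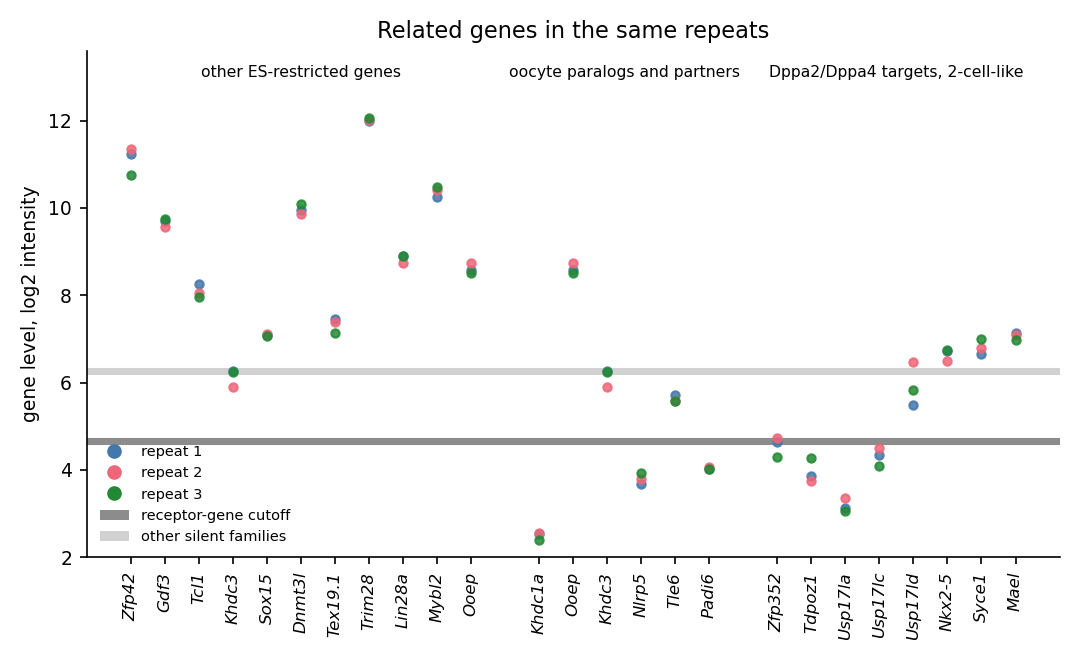
Log2 intensity in repeats 1, 2 and 3 (points) of related genes, with bands for the 2 background cutoffs. The groups are genes listed as ES-restricted, oocyte genes related to Dppa5a or of a maternal complex, and Dppa2 and Dppa4 targets with 2-cell-like genes. Genes listed as ES-restricted lie above the lower band, while Nlrp5, Padi6, Khdc1a and most 2-cell-like genes lie at or below it.

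Genes of pathways or families linked to the other members were read as lists, and joint action with a member was not tested. Their counts stand beside the 67.4% of all genes that passed the receptor cutoff and the 39.5% that passed the stricter one. No difference from these shares was tested. Of 9 measured genes of DNA methylation, 8 passed the receptor cutoff on all 3 arrays and 7 the stricter one. Uhrf1, the factor that brings the maintenance enzyme to DNA and that Dppa3 binds, read 10.33, 10.20 and 10.23 in repeats 1, 2 and 3. Dnmt1 stood at 9.84 ± 0.11, Dnmt3a at 7.94 ± 0.17 and Dnmt3b at 8.88 ± 0.40 (SD, n = 3). Npm2, an oocyte chaperone, was below background at 3.83 ± 0.27. Of 10 germ cell specification genes all passed the receptor cutoff and 7 the stricter one, with Prdm1 at 5.17 ± 0.20 below the latter, and Prdm14 at 6.605 ± 0.14, Tfap2c at 7.56 ± 0.057, Ifitm3 at 9.40 ± 0.35 and Dazl at 6.79 ± 0.47 above it. All 11 Polycomb and related genes listed for Utf1 passed the receptor cutoff and 10 the stricter one, among them the Polycomb subunits Ezh2 (10.17 ± 0.023), Eed (7.10 ± 0.15), Suz12 (10.46 ± 0.12) and Jarid2 (11.16 ± 0.048, SD, n = 3), as well as Myc at 8.69 ± 0.29.

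All 10 ubiquitin ligase genes listed for Fbxo15 passed the receptor cutoff and 9 the stricter one. Skp1, the adaptor that F-box proteins bind, read 9.70, 10.004 and 9.87 in repeats 1, 2 and 3, the scaffold Cul1 9.18, 9.07 and 9.10, and the RING subunit Rbx1 8.41, 8.43 and 8.36. Skp2 at 8.59 ± 0.098 and Fbxw11 at 8.004 ± 0.16 (SD, n = 3) are substrate-binding subunits of the same kind of ligase. Of 9 measured RNA-binding genes listed for L1td1 all passed the receptor cutoff and 7 the stricter one. Lin28a, which represses let-7 microRNA maturation, read 8.90, 8.73 and 8.90 in repeats 1, 2 and 3. Lin28b stood at 6.42 ± 0.20, Msi1 at 6.38 ± 0.14, Msi2 at 9.35 ± 0.077 and Zc3h12a at 7.35 ± 0.28 (SD, n = 3). Of all 110 genes measured over the 13 lists, Acta2 was the 1 that the variance test called.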

How the data were processed

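Per the labels' protocols, total RNA was extracted with Trizol and biotin-labelled with the WT Terminal Labeling Kit. The deposited values are intensities of 26730 probe sets, read from their range as linear. The submitters' processing notes name GCOS 1.4. How background, normalization and the summary of probes into probe sets were handled is not given in the sources used here. Array medians were 47.8, 46.7 and 46.8, and no further normalization was applied. Intensities were taken to log2, with a lower limit of 1 that changed no value. Probe sets were named by the platform annotation, which can be old: 20764 had 1 symbol and were kept, 1419 had several and 4547 had none listed. Where a gene had several (930 genes), their log2 values were averaged, which gave 19057 genes.

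The variance test set each gene's variance from an intercept-only fit over limma's trended, robust prior (limma 3.58.1, R 4.3.3) against the F distribution, with Benjamini-Hochberg adjustment at 0.05. Python 3.11.15, numpy 2.4.6, pandas 2.3.3 and matplotlib 3.10.9 were used. The members, the 13 gene lists and the tests were chosen with earlier results of these data known. Genes named from a list are its first 4 measured, its member with the largest SD, and members on the rarer side of the detection call where these numbered 5 or fewer; others were named after their values were seen. Skp1 was written under its synonym Skp1a. Alternatives covered the background cutoff, normalization, probe set averaging, prior, filter, pseudocount and leaving out each repeat. RefSeq (GRCm38.p6) served for names, gene order and promoter sequence.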

Additional observations from a re-analysis of the deposited data

How the results depend on the processing

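All 7 genes stayed above background on all arrays used under every alternative but the stricter silent families, where 6 did, and none was called by the variance test in any of the 10 alternatives, including each probe set tested by itself. Over the lists, 91 of 110 genes passed the receptor cutoff on all 3 arrays, beside 67.4% of all genes. Under the alternatives, 71 to 93 of the 110 passed the cutoff used there. The 71 passed the stricter cutoff from the other families, beside 39.5% of all genes. At the 99th percentile of the receptor genes 83 passed, beside 51.7% of all genes. The median level of the 7 genes, 9.80, moved to 10.29 with the highest probe set of a gene and ranged from 9.72 to 9.94 when 1 repeat was left out. The number of all genes called by the variance test, 22, became 13 after quantile normalization, 42 after centring on the median, 1 with no trend in the prior and 10 with no robust prior, and lay between 0 (with 702 at an unadjusted p under 0.05 in limma) and 34 when 1 repeat was left out. The cause of these moves was not tested. With log2(intensity + 16) the mean level of Dppa3 was 6.36 in place of 6.05. No paired analysis was possible because there is 1 group. Signal over background limits Dppa3 most.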
